A study of Mus musculus with 4 samples.

Results

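The BCL2 family was followed through 10 of its genes, of the 53465 genes in the count table: 6 pro-survival members (Mcl1, Bcl2a1a, Bcl2a1b, Bcl2a1d, Bcl2 and Bcl2l1) and 4 pro-death members (Bax, Bak1, Bid and Bcl2l11). They were taken by gene symbol, and all 10 had enough reads to be tested. The RNA came from myeloid-derived suppressor cells (MDSCs), immature myeloid cells that expand in tumor-bearing hosts. The mice were male BALB/c animals, per the study's methods 6 weeks old when injected with 4T1, a transplantable mammary carcinoma line. The cells were pulled from the spleens of these tumor-bearing mice with magnetic beads that bind Gr-1, the epitope common to Ly6G and Ly6C. All the cells were then kept in culture for 6 h, in control medium (control group, 2 libraries) or with 5 μg/mL of EGCG, a green tea catechin (EGCG treatment group, 2 libraries). The labels put the sacrifice on day 21 after 4T1 injection and the methods put the sorting at 2 weeks, and neither says whether replicate libraries stem from separate mice, so the p-values measure the spread between these libraries, which may be technical.

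The proteins of this family decide whether the outer mitochondrial membrane is opened, the step that commits a cell to intrinsic apoptosis. BAX and BAK form the pore. MCL1, A1 (the product of the Bcl2a1 genes), BCL2 and BCL-XL (the product of Bcl2l1) hold BAX and BAK back, and BH3-only proteins such as BID and BIM (the product of Bcl2l11) release or activate them. Neutrophils and their precursors are short-lived cells known to depend on MCL1, a protein with a very short half-life, and A1 is known as a target of NF-κB and of survival cytokines in these cells.

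The BH3 motif, through which the pro-death proteins bind the groove of the pro-survival ones, has a core of a leucine, 3 further residues, a glycine and an aspartate. It was searched as codons in the coding sequence of 1 principal transcript per gene (GENCODE M21, GRCm38). Exactly 1 match was found in 7 of the 10 members and none in the 3 Bcl2a1 copies. Of 21803 coding genes, 2868 (13.2%) hold at least 1 match, so the match alone does not single out this family. The 36 coding bases around each match are shown because this core occurs in pro-survival and pro-death members alike, outside the Bcl2a1 copies. They are written 5′ to 3′ on the coding strand, with the codons for leucine, glycine and aspartate in capitals.
Mcl1: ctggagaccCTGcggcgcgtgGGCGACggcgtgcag
Bcl2: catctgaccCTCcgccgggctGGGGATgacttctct
Bcl2l1: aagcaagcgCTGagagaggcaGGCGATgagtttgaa
Bax: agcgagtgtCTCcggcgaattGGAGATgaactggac
Bak1: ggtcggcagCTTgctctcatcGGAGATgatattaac
Bid: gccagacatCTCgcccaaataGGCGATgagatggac
Bcl2l11: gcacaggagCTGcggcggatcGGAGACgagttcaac
Each stretch lies within 1 exon. On GRCm38 they are at chr3:95659427-95659462 (Mcl1, plus strand), chr1:106712575-106712610 (Bcl2, minus), chr2:152829697-152829732 (Bcl2l1, minus), chr7:45465997-45466032 (Bax, minus), chr17:27022531-27022566 (Bak1, minus), chr6:120897289-120897324 (Bid, minus) and chr2:128147141-128147176 (Bcl2l11, plus). The leucine is codon 194 of 330 in Mcl1, codon 94 of 235 in Bcl2, codon 90 of 232 in Bcl2l1 and codon 63 of 191 in Bax. A second run of codons, for asparagine, tryptophan, glycine and arginine, known from the BH1 region of the groove, was found in all 6 pro-survival members and in Bax, and in 0.105% of the coding genes. It starts 46 or 47 codons after the leucine in Mcl1, Bcl2 and Bcl2l1 and 43 codons after it in Bax.

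The Bcl2a1 copies are shown because their likeness limits what the counts can say of each. Their coding sequences, all of 516 bases, differ at 12 positions in all, of which 6 fall in the first 60 bases. Capitals mark the bases that are not the same in all 3 copies.
Bcl2a1a: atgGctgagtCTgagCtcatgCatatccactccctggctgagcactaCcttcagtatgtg
Bcl2a1b: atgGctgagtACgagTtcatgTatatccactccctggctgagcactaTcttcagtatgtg
Bcl2a1d: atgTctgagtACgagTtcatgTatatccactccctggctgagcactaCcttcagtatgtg
The stretches are at chr9:88957051-88957110 (plus strand), chr9:89199360-89199419 (plus) and chr9:88731660-88731719 (minus) of GRCm38, each in 1 exon. Bcl2a1a was 97.87% identical to Bcl2a1b and 98.64% to Bcl2a1d, and Bcl2a1b and Bcl2a1d were 98.84% identical. Between 79.6% and 89.1% of the 31-base words in the transcripts of each copy occur in transcripts of other genes, mostly the other copies.

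Library totals were 17767318 and 17973695 counts in the control group and 18390385 and 18091684 in the EGCG treatment group. The labelled cell type was checked against fixed marker lists. The 13 neutrophil and granulocytic markers were all tested and summed to 64870 and 76730 CPM (reads of a gene relative to the TMM-scaled library size) in control and 85680 and 76210 in EGCG. Ly6g, the granulocytic part of the Gr-1 epitope, stood at 943.2 to 1200.0 CPM, and Ly6c2, the monocytic part, at 120.3 to 157.8. Markers of other cells were present too, at sums of 399.6 to 453.0 CPM for B cells and 757.6 to 1066 CPM for eosinophils. NK cell markers summed to 9.63 to 13.5 CPM, with Klra8 at 0 reads and Nkg7 at 83 to 122, and epithelial markers to 22.7 to 26.7 CPM, with Krt14 at 0 reads, Krt8 at 0 to 2 and Epcam at 59 to 99. The sums of 6 lists were lower in both EGCG libraries than in both control libraries: monocyte (920.4 and 922.3 against 971.3 and 1005), macrophage (278.8 and 292.5 against 340.3 and 351.5), platelet (38.8 and 39.0 against 43.1 and 48.4), eosinophil (757.6 and 897.6 against 920.8 and 1066), endothelial (97.6 and 103.9 against 120.3 and 131.7) and cycling cells (398.0 and 414.7 against 500.7 and 510.3). The B cell sum (420.9 and 453.0 against 399.6 and 418.2) and the T cell sum (121.1 and 121.3 against 104.7 and 117.4) were higher. Of all single tested genes, 21.2% were separated downward in this way and 21.5% upward. Some of the list sums rest on 1 gene. Without its most abundant gene the groups overlapped for monocytes (Csf1r left out, 373.5 and 373.1 against 384.9 and 344.5 in EGCG), for T cells (Cd3d) and for platelets (Itga2b), whereas the macrophage, eosinophil, endothelial and cycling sums stayed lower and the B cell sum higher. The gap was narrow for macrophages without Adgre1 (144.3 and 123.3 against 97.6 and 122.8 in EGCG). It was also narrow for cycling cells without Mki67 (207.7 and 230.9 against 206.1 and 196.7 in EGCG). In lists whose full sums overlapped, the neutrophil sum without S100a9 was higher with EGCG (54020 and 49200 against 42410 and 48440), as was the epithelial sum without Cdh1 (6.51 and 6.61 against 4.66 and 3.86), and the plasma cell sum without Jchain was lower. Of all the marker genes, Mki67 of the cycling cells passed the adjusted threshold, and it was lower with EGCG (log2 fold change -0.48, edgeR adjusted p = 0.0245). The other cycling markers did not share its size, with log2 fold changes from -0.21 in Top2a to 0.11 in Birc5. In bulk RNA, fewer cells of a type and less RNA per cell cannot be told apart, and the part of these cells in the members' values was not tested.

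Levels of different genes were compared as CPM per kb of exonic length, a scale on which long genes do not gain from their length. Mcl1 was far above every other member, with 384.7 and 415.8 CPM per kb in control and 406.3 and 415.9 in EGCG. It held 58.1% to 59.5% of the summed per-length level of the 10 members in each library. With the Bcl2a1 copies counted apart, Bax came next, at 60.9 to 68.2 CPM per kb over the 4 libraries, but the 3 copies together stood above it, at 118.2 to 133.8. Bcl2a1a (43.0 to 56.2) and Bcl2a1d (48.7 to 51.5) followed and overlapped each other. Bcl2l11 lay at 32.0 to 36.7 CPM per kb, apart from its neighbours in the order. Bak1 (24.9 to 26.7) and Bcl2a1b (22.8 to 26.7) could not be told apart. Bid (19.4 to 21.7) and Bcl2l1 (11.99 to 13.2) were lower, and Bcl2 was last, at 0.72 to 0.83 CPM per kb. The values of the Bcl2a1 copies can be too low or wrongly divided, because reads from shared sequence may be dropped or assigned to another copy.

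**Figure D1:**
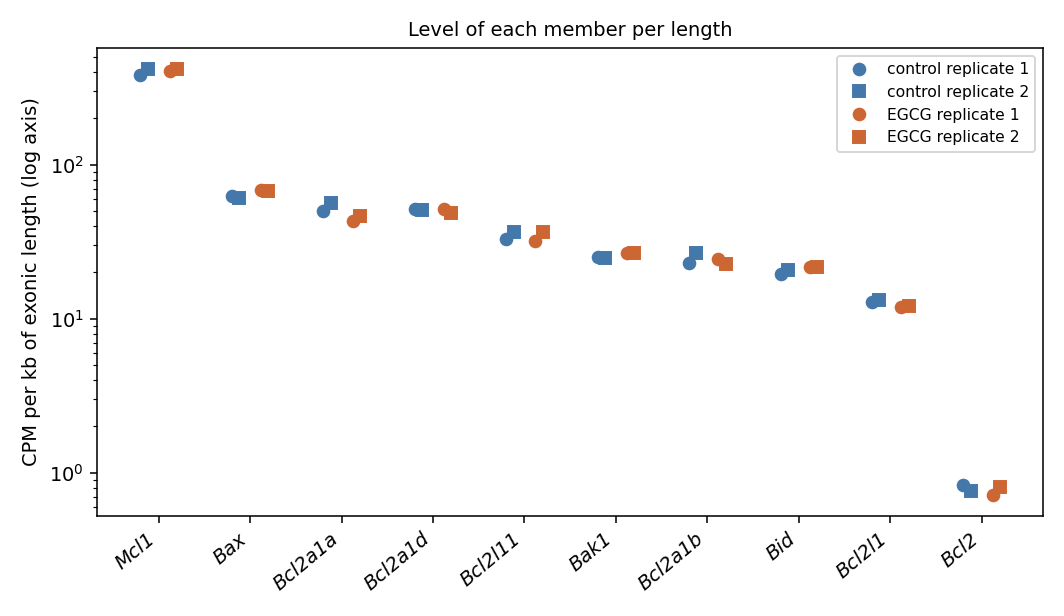
Level of the 10 members, in CPM per kb of exonic length on a log axis, with 1 point per library (circles, replicate 1; squares, replicate 2) for the control and EGCG treatment groups. Mcl1 lies between 384.7 and 415.9 and Bcl2 between 0.72 and 0.83, and the points of Bcl2a1a overlap those of Bcl2a1d, as do those of Bak1 and Bcl2a1b.

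The comparison of the EGCG treatment group with control asked whether EGCG changed the expression of these genes. No member passed an adjusted p of 0.05 in edgeR's quasi-likelihood test, beside 22 of 14682 tested genes (0.150%). At an unadjusted p under 0.05 there was 1 member, Bcl2a1a, which was lower with EGCG, where 12.2% of all tested genes had such a p and 7.02% had it in the lower direction. DESeq2 also called 0 members, and it left 0 with an unadjusted p under 0.05. It gave no adjusted p for Bcl2 (DESeq2 unadjusted p = 0.842). The log2 fold changes ran from -0.24 to 0.14, with standard errors of 0.07 to 0.17. Every 95% confidence interval lay between a fall of 26.8% and a rise of 24.01% in CPM.

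**Figure D2:**
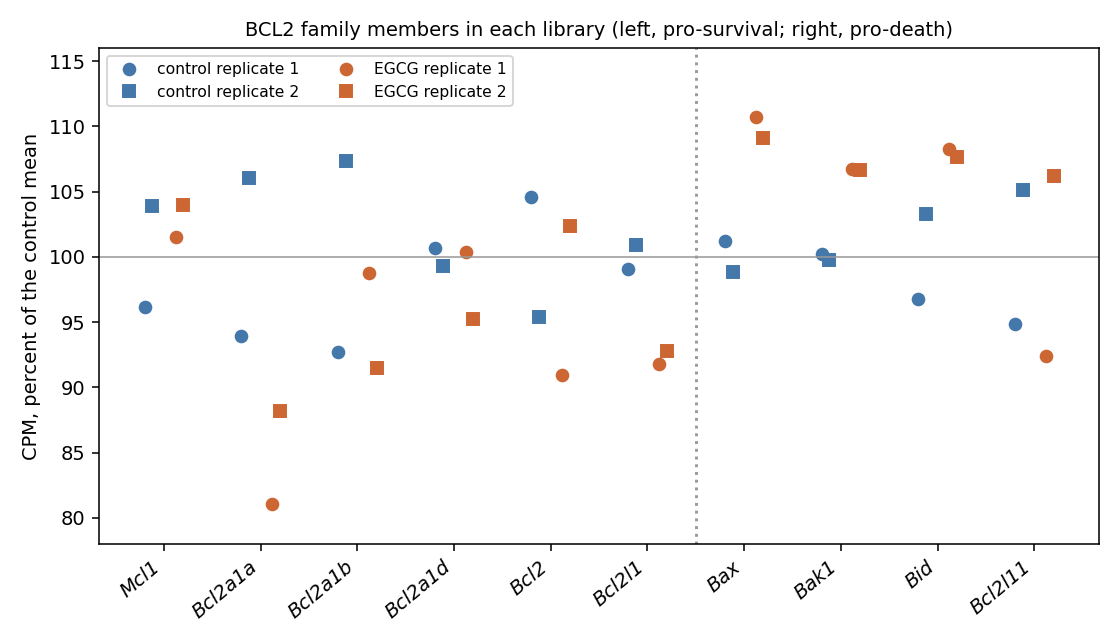
CPM of each member in each library as a percent of its control mean, with pro-survival members left of the dotted line and pro-death members right of it (circles, replicate 1; squares, replicate 2). Bcl2a1a was at 81.0% and 88.2% in the EGCG libraries and Bax at 110.7% and 109.1%, while the control libraries of the 10 members ranged from 92.7% to 107.3%.

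Among the pro-survival members, Mcl1 (ENSMUSG00000038612, chr3:95658788-95663176, plus strand) had 1315 and 1421 CPM in control and 1389 and 1422 in EGCG, from 24008 to 25395 reads per library. The EGCG libraries lay within or just above the control range. The difference was 0.04 on the log2 scale (standard error 0.08, adjusted p = 0.890), and the interval ran from -8.71% to 15.6%. This leaves room for a change of Mcl1 within those bounds.

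Bcl2a1a (ENSMUSG00000102037, chr9:88956900-88962419, plus strand) had 40.8 and 46.1 CPM in control and 35.2 and 38.3 in EGCG, from 638 to 823 reads. Both EGCG libraries were below both control libraries, and the means were 43.4 ± 3.72 and 36.7 ± 2.20 (SD, n = 2 each). The log2 fold change was -0.24 (standard error 0.10), and the unadjusted p of 0.0262 became 0.344 after adjustment in edgeR. Without control replicate 2 the log2 fold change was -0.15 and the edgeR p 0.206, and without EGCG replicate 1 they were -0.18 and 0.168. Leaving out control replicate 1 or EGCG replicate 2 gave -0.32 and -0.30, with edgeR p-values of 0.00743 and 0.0208.

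Bcl2a1b (ENSMUSG00000089929, chr9:89199209-89207827, plus strand) had 18.8 and 21.8 CPM in control and 20.1 and 18.6 in EGCG, and the groups overlapped (log2 fold change -0.07, standard error 0.12, adjusted p = 0.856). Bcl2a1d (ENSMUSG00000099974, chr9:88723285-88731914, minus strand) had 44.5 and 43.9 CPM in control and 44.3 and 42.1 in EGCG, overlapping as well (-0.03, standard error 0.09, adjusted p = 0.922). Whether the copies differ from each other in their change was not tested. When the 3 copies were added up, their sum was 104.1 and 111.8 CPM in control and 99.6 and 98.9 in EGCG. The sum was lower in both EGCG libraries, and its log2 fold change was -0.12 (standard error 0.08, edgeR adjusted p = 0.567). It was -0.066 when control replicate 2 was left out and -0.17 when control replicate 1 was. Bcl2a1a made up 39.2% and 41.2% of the sum in control and 35.3% and 38.7% in EGCG, so its share was lower in both EGCG libraries. The remaining copy, Bcl2a1c, had 1 to 4 reads per library and was not tested.

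Bcl2l1 (ENSMUSG00000007659, chr2:152780668-152831728, minus strand), whose main product BCL-XL also restrains BAX and BAK, had 59.4 and 60.5 CPM in control and 54.99 and 55.6 in EGCG. Both EGCG libraries were lower, and the SDs of the groups were 0.797 and 0.430 CPM (n = 2 each). The change was -0.12 on the log2 scale, and its standard error of 0.08 takes in the spread of other genes of like abundance (edgeR adjusted p = 0.611). Bcl2 (ENSMUSG00000057329, chr1:106538178-106714274, minus strand), the founding member, which lymphocytes are known to depend on more than neutrophils, had 7.61 and 6.94 CPM in control and 6.62 and 7.45 in EGCG. Its groups overlapped (log2 fold change -0.05, standard error 0.17, adjusted p = 0.939), and with 120 to 139 reads per library its interval was the widest, from -24.7% to 24.01%.

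Among the pro-death members, Bax (ENSMUSG00000003873, chr7:45461697-45466898, minus strand) had 98.3 and 95.9 CPM in control and 107.5 and 105.9 in EGCG. Both EGCG libraries were higher, by 0.14 on the log2 scale (standard error 0.07, edgeR adjusted p = 0.494). Bak1 (ENSMUSG00000057789, chr17:27019810-27029009, minus strand), the other pore former, had 60.2 and 59.9 CPM in control and 64.1 in both EGCG libraries. These were also higher, by 0.09 with a standard error of 0.08 (adjusted p = 0.685). With library size only, the log2 fold change of Bak1 was 0.059. Bid (ENSMUSG00000004446, chr6:120891930-120916853, minus strand), which caspase-8 cleaves to link death receptors to the mitochondrion, had 68.9 and 73.5 CPM in control and 77.1 and 76.7 in EGCG. Both EGCG libraries were higher again, by 0.11 on the log2 scale (standard error 0.08, adjusted p = 0.618). The value was 0.069 when control replicate 1 was left out. Bcl2l11 (ENSMUSG00000027381, chr2:128126038-128162547, plus strand) encodes BIM, a BH3-only protein known to end the life of granulocytes deprived of cytokines. It had 263.4 and 291.8 CPM in control and 256.6 and 294.9 in EGCG. The spread within each group was larger than the difference between them, which was -0.01 on the log2 scale (standard error 0.09, adjusted p = 0.978).

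**Figure D3:**
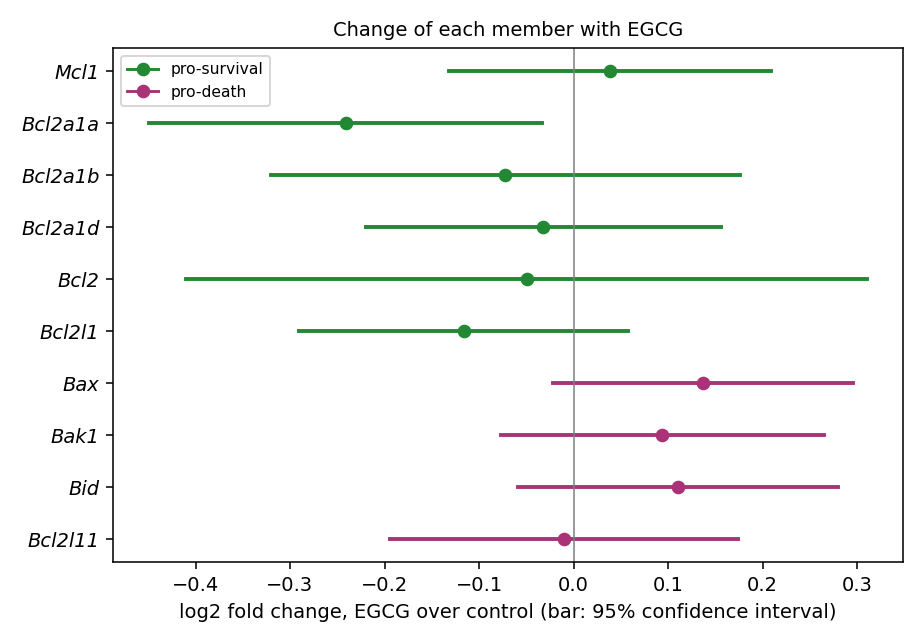
Log2 fold change of each member, EGCG over control, with its 95% confidence interval from the edgeR fit (green, pro-survival; purple, pro-death). The interval of Bcl2a1a lies below 0 before adjustment for the number of genes tested, and those of the other 9 members cross 0.

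In 3 members (Bax, Bak1 and Bid) both EGCG libraries were above both control libraries, and in 2 (Bcl2a1a and Bcl2l1) both were below. Of all tested genes, 21.5% were separated in this way upward and 21.2% downward, and 3 and 2 of 10 members are close to these shares. The median log2 fold change was -0.06 over the 6 pro-survival members and 0.10 over the 4 pro-death members, compared with 0.00 over all tested genes. These lists are short and carry no test. The summed per-length level of the pro-survival members divided by that of the pro-death members was 3.75 and 3.95 in control and 3.62 and 3.60 in EGCG. Without Mcl1 the ratio was 0.990 and 1.03 in control and 0.886 and 0.862 in EGCG. The ratio of Bcl2l1 to Bax was 0.208 and 0.217 in control and 0.176 and 0.180 in EGCG. These 3 ratios were lower in both EGCG libraries, whereas the ratio of Mcl1 to Bax, 6.17 and 6.83 in control and 5.96 and 6.19 in EGCG, overlapped. All were formed after the members' values had been seen, and the groups of Bcl2l1 and Bax were already separate in opposite directions.

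Gene length moved with the comparison. The median log2 fold change of all tested genes was 0.09 in the class of shortest exonic length, of 4 classes with nearly equal numbers of genes, which holds Bax and the Bcl2a1 copies, 0.04 in the next, which holds Bak1, Bid and Mcl1, -0.01 in the third, which holds Bcl2l1, and -0.08 in the longest, which holds Bcl2 and Bcl2l11. With an offset for length, these medians were 0.02 to 0.04. The log2 fold change of Bax was then 0.11 and that of Bcl2a1a -0.30 (edgeR adjusted p = 0.315). Those of Bcl2a1b and Bcl2a1d became -0.13 and -0.09, and both EGCG libraries of either copy then lay below both control libraries, so that 7 members in place of 5 had separate groups, where 41.8% of all tested genes had them in either direction under the offset. Those of Bcl2 and Bcl2l11 became 0.06 and 0.08.

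**Figure D4:**
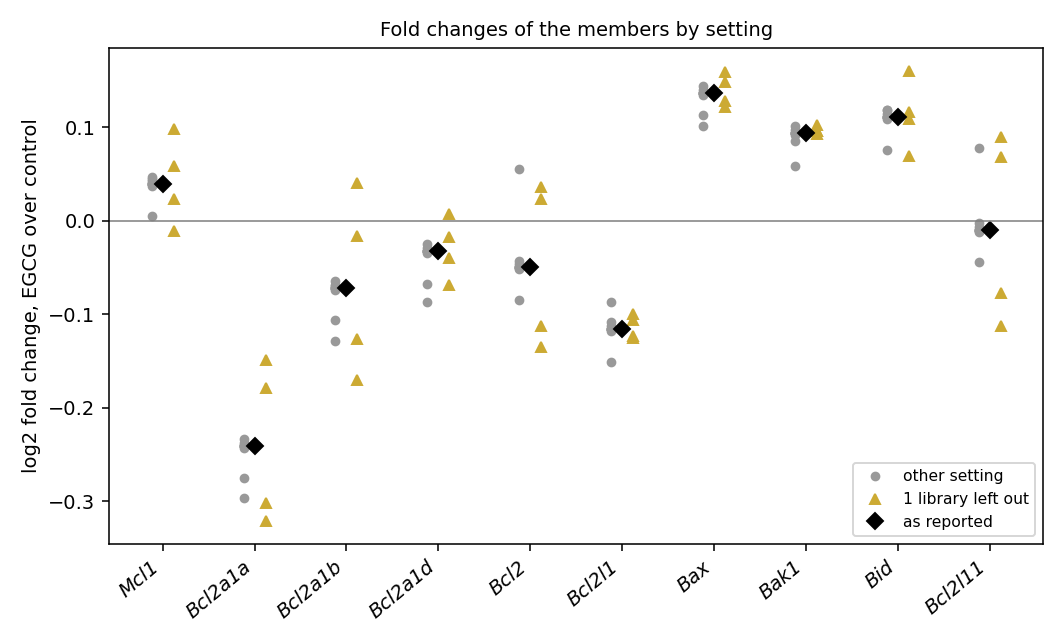
Log2 fold change of each member, EGCG over control, as reported (diamonds), under other filters, scalings, tests and corrections (grey circles) and with 1 library left out (triangles). Bax stayed between 0.10 and 0.16 and Bcl2l1 between -0.15 and -0.09, whereas Mcl1, Bcl2a1b, Bcl2a1d, Bcl2 and Bcl2l11 lay on both sides of 0.

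Some members share exonic sequence with neighbours, and the counting ignored strand. Exons of Ggnbp1 cover 25.5% of the exonic bases of Bak1 from the opposite strand, and exons of Bcl2l13 cover 17.7% of those of Bid. Ggnbp1 had 95 to 119 reads per library. Bcl2l13, itself a BCL2-like protein of the mitochondrial membrane, had 47.7 and 49.3 CPM in control and 42.6 and 43.2 in EGCG, the opposite direction to Bid, and did not pass the test (edgeR adjusted p = 0.432). Gm29094 overlaps 49.1% of the exonic bases of Bcl2a1b on the same strand and had 2 to 5 reads. Gm45808, which overlaps 12.2% of those of Bax, had 0. Reads in the shared stretches cannot be assigned with certainty.

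A fixed list of 54 other genes of the pathway was read from the same fit, and 47 of them were tested. None passed the adjusted threshold in edgeR (0.150% of all tested genes did), 6 had an unadjusted p under 0.05 (12.2% of all tested genes had), and DESeq2 called 2, Huwe1 and Csf2rb, of 64 genes it called in all. Both EGCG libraries were above control in 12 and below in 12, where 21.5% and 21.2% of all tested genes were, and these counts are close to those shares. The median log2 fold change was -0.01. The numbers in each direction were thus equal, with 3 of the 6 higher and 3 lower.

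Of the other BH3-only genes, Bbc3, which encodes the p53 target PUMA, had 47.9 and 46.3 CPM in control and 53.0 and 54.7 in EGCG (log2 fold change 0.19, standard error 0.08, edgeR adjusted p = 0.382). Bnip3, a mitochondrial protein of hypoxia and mitophagy, had 16.1 and 17.96 CPM in control and 21.8 and 19.3 in EGCG (0.27, standard error 0.12, adjusted p = 0.376). Bnip3l, a relative of Bnip3 and the most abundant of this group, had 145.9 and 157.8 CPM in control and 177.9 and 157.2 in EGCG, and the groups overlapped. Both Bbc3 and Bnip3 were higher in the 2 EGCG libraries than in the 2 control libraries, without passing the adjusted threshold. Of the 6 tested genes of this group, 3 were separated upward and 1 downward, where 21.5% and 21.2% of all tested genes were.

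Among pore proteins and proteins released from mitochondria, Endog, a mitochondrial nuclease, had 15 and 22 reads in control and 43 and 33 in EGCG (log2 fold change 1.04, standard error 0.35, edgeR adjusted p = 0.257). DESeq2 gave no adjusted p for Endog (DESeq2 unadjusted p = 0.0466). Vdac2, an outer membrane channel that binds BAK and the most abundant of the group, had 214.7 and 222.6 CPM in control and 229.1 and 234.5 in EGCG (0.08, adjusted p = 0.689). Dffa, the inhibitor of the nuclease that cuts DNA in apoptosis and the more abundant DNA fragmentation gene, was at 32.8 and 31.5 CPM in control and 35.4 and 33.1 in EGCG. In these 3 genes both EGCG libraries were higher, as they were in 21.5% of all tested genes. Of the 8 tested genes for pore and released proteins, 4 were separated upward and 1 downward. Of the 2 DNA fragmentation genes, 1 was separated, upward.

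Among the inhibitor of apoptosis genes, Birc3, a target of NF-κB, was the most abundant, with 288.3 and 316.7 CPM in control and 281.7 and 282.2 in EGCG (log2 fold change -0.10, edgeR adjusted p = 0.640). Bcl2l2, the pro-survival relative BCL-W, had 6.08 and 5.82 CPM in control and 6.18 and 5.77 in EGCG. No gene of the inhibitor group had an unadjusted p under 0.05.

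Genes whose proteins set the half-life of MCL1 had log2 fold changes of -0.42 to -0.01 in all 4 tested, and 2 of them had an unadjusted p under 0.05 in the lower direction, as 7.02% of all tested genes did. Of the 14682 tested genes, 7254 had a log2 fold change below 0. Gsk3b, a kinase that primes MCL1 for degradation, had 122.7 and 122.6 CPM in control and 124.5 and 118.5 in EGCG, and the groups overlapped. Huwe1, an E3 ligase that marks MCL1 for degradation, had 149.8 and 128.7 CPM in control and 103.0 and 105.8 in EGCG (log2 fold change -0.42, standard error 0.08, edgeR adjusted p = 0.0717). Usp9x, which removes ubiquitin from MCL1 and so acts the opposite way, had 130.7 and 130.0 CPM in control and 111.1 and 112.5 in EGCG (-0.22, standard error 0.07, adjusted p = 0.244). All 4 tested genes of this group lie in the class of longest genes, whose median log2 fold change was -0.08. With the offset for length, the log2 fold changes of Huwe1 and Usp9x were -0.20 and -0.06. The call on Huwe1 changed with the setting, with an adjusted p of 0.0177 in DESeq2, 0.0364 with robust estimation, 0.0130 with library size only and 0.388 with the length offset. With no filter it was 0.593. With edgeR and 1 library left out, it was 0.254 without control replicate 1 (log2 fold change -0.30) and 0.000663 without control replicate 2, and 0.0396 and 0.00762 for EGCG replicates 1 and 2.

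Of the cytokine receptors and regulators of transcription, Csf3r, the receptor of G-CSF, was the most abundant, with 3561 and 3652 CPM in control and 3628 and 3643 in EGCG. Csf2rb, the β chain shared by the receptors of GM-CSF, IL-3 and IL-5, had 812.1 and 787.8 CPM in control and 624.3 and 660.4 in EGCG (log2 fold change -0.32, standard error 0.08, edgeR adjusted p = 0.121). Its adjusted p was 0.0177 in DESeq2 and 0.0271 in edgeR with library size only, but 0.593 with no filter and 0.325 with the length offset (log2 fold change -0.24), and it too lies in the class of longest genes. With a library left out it was 0.0388 and 0.0408 (control replicate 2, EGCG replicate 2) or 0.246 and 0.229 (control replicate 1, EGCG replicate 1). It has a close paralog, Csf2rb2, with which reads may be divided. Eosinophils also carry this receptor, and the eosinophil marker sum was lower in the EGCG libraries. The part of those cells in the value was not tested. The genes with too few reads to be tested were Bcl2l10, Bcl2l14, Bcl2l15, Bik, Hrk and Trim17, besides Bcl2a1c.

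**Figure D5:**
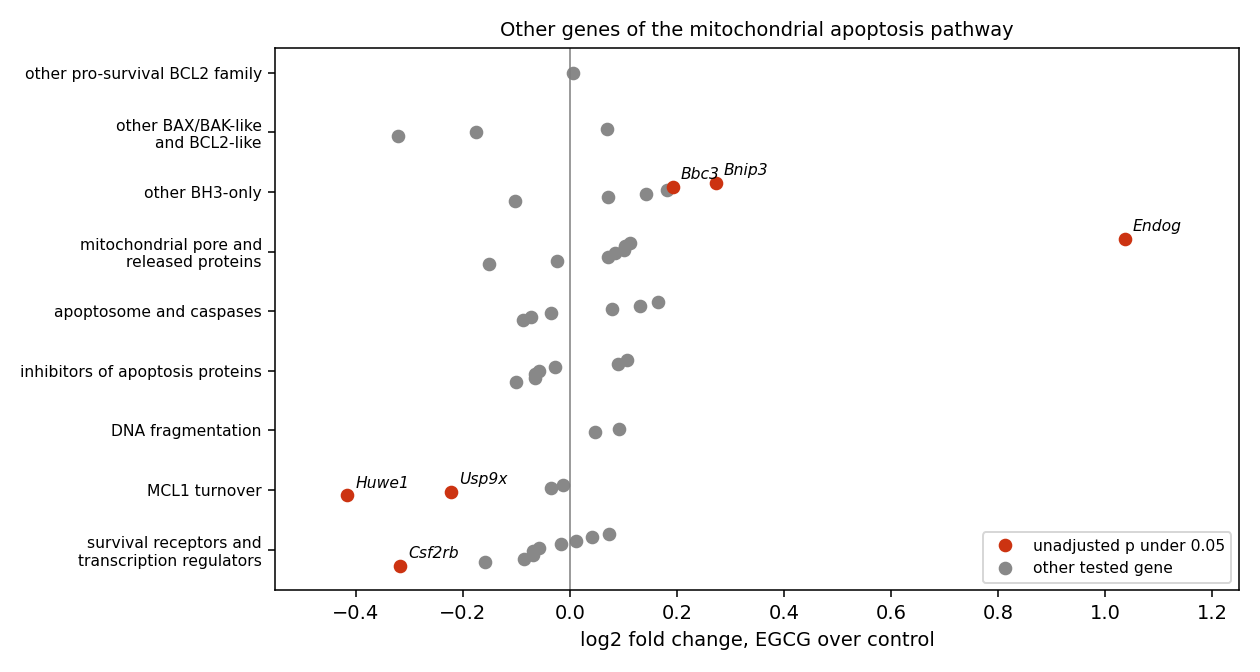
Log2 fold change, EGCG over control, of the 47 tested genes of the pathway list by group, with the 6 genes of unadjusted p under 0.05 in red and named. Endog, with 15 to 43 reads per library, lies at 1.04, and the points of the other genes lie between -0.42 and 0.27.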

How the data were processed

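The authors aligned reads to GRCm38 with STAR 2.6.0c and made the gene count table with featureCounts 1.6.2 on Ensembl release 91, per the study's methods and the submitters' processing notes, and the deposited values are whole-number counts that ignore strand and are not normalized. How reads with several matches were treated is not given in the sources used here. Counts were filtered with filterByExpr (minimum count 10), scaled by TMM and tested in edgeR 4.0.16 (R 4.3.3, quasi-likelihood test, legacy form, no block), with Benjamini-Hochberg adjustment over 14682 genes and a threshold of 0.05. The standard error is the log2 fold change over the root of F. With 2 libraries per group, an exact two-sided permutation test of 1 gene cannot go below 0.333. Gene positions, exonic lengths and coding sequences came from GENCODE M21 (GRCm38), not the authors' annotation. DESeq2 1.42.0, Python 3.11.15, pandas 2.3.3, Biopython 1.88 and matplotlib 3.10.9 were also used, and the test was first tried on simulated data. Members and gene lists were chosen with earlier results of these data known. The genes named are all members, pathway genes with an unadjusted p under 0.05, the tested gene with the highest mean CPM over the 4 libraries in each pathway group, and markers. The result of 1 gene of the pathway list is not reported here, though the counts include it. The alternatives were other filters, scalings, tests and fits, a replicate block, a length offset, summed Bcl2a1 counts, and leaving out each library.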

Additional observations from a re-analysis of the deposited data

How the results depend on the processing

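No member was called under any of 14 other settings, and of 140 member fold changes 131 kept their direction and 9 reversed. DESeq2 gave no adjusted p for Bcl2, which could therefore not be called there. Bcl2a1a, Bcl2l1, Bax, Bak1 and Bid never reversed. These are the members whose groups did not overlap, so leaving out 1 library could hardly change their direction. The settings refit the same libraries and are not independent. With the length correction, the log2 fold change reversed to 0.055 in Bcl2 and to 0.078 in Bcl2l11. With 1 library left out, it reached -0.012 to 0.098 in Mcl1 (reversed without control replicate 1), -0.17 to 0.040 in Bcl2a1b (without control replicate 2), -0.069 to 0.0068 in Bcl2a1d (without EGCG replicate 2), -0.14 to 0.036 in Bcl2 (0.023 when control replicate 1 was left out, 0.036 for EGCG replicate 1) and -0.11 to 0.090 in Bcl2l11 (0.068 when control replicate 2 was left out, 0.090 for EGCG replicate 1). The number of genes called over the whole table went from 22 to 0 with no filter, 151 with library size only, 11 with upper-quartile scaling, 64 in DESeq2, 63 with robust estimation, 5 with the length correction and 77 to 354 with 1 library left out. The causes of these moves were not tested. Pathway genes called numbered 2 with library size only, 2 in DESeq2, 1 with robust estimation and 0 to 2 with a library left out, and those with an unadjusted p under 0.05 numbered 2 to 8 with a library left out. Members with an unadjusted p under 0.05 numbered 0 in DESeq2 and 0 to 1 with a library left out, when 6 to 9 of 10 members and 67.9% to 74.1% of all tested genes had groups that did not overlap. The pro-survival median was -0.096 with library size only, -0.087 with the length correction, -0.083 with the Bcl2a1 counts summed and -0.087 to -0.070 with a library left out. The pro-death median was 0.067 with library size only and 0.085 to 0.11 with a library left out. With a library left out, the lone sample of a group is assumed to vary like the others.

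The replicate block gave 30 called genes and 0 called members. The labels tie libraries of the same number to nothing, and their deviations from the group means correlated at 0.03 across 14682 genes, which are not independent. Bcl2 had 120 to 139 reads per library, with 2 libraries per group. Its interval, from -24.7% to 24.01%, leaves room for a change within those bounds, and no limit of detection was computed.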
